A study of Mus musculus with 34 samples.

Results

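The genes described here encode heterogeneous nuclear ribonucleoproteins (hnRNPs), SR proteins, the SF3 factors and the small nuclear ribonucleoprotein (snRNP) proteins. They were taken as every gene whose RefSeq symbol starts with Hnrnp, Srsf, Sf3a, Sf3b or Snrp. This rule uses names and no measured value, but it was chosen with earlier results of these data known. The name table holds 58 such symbols. Of these, 47 genes (73 probes) were on the array out of 16535 named genes, and 46 genes (72 probes) were tested among 19798 genes. The tested genes were 18 hnRNP, 9 SR protein, 8 SF3 and 11 snRNP protein genes, and Srsf12 did not pass the filter on dim probes. The study measured hearts of female C57BL/6 mice from Taconic, acquired at 5 to 6 weeks of age, on 34 two-colour arrays with 1 mouse per array. Exposed mice received 1 intratracheal instillation of 162 µg of Printex 90, a carbon black nanoparticle, and vehicle controls received 0 µg. Both groups received the vehicle, 40 µl of salt water with acellular lavage fluid from C57BL/6 mice, so the controls were instilled too. Control hearts numbered 6 at day 1, 6 at day 3 and 6 at day 28, and carbon black hearts numbered 6, 5 and 5.

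Splicing removes introns from the first transcript of a gene and joins the exons. The U1 and U2 snRNPs mark the ends of each intron, and the SF3A and SF3B factors are part of the U2 snRNP and hold it at the branch point. SR proteins bind exons and mostly favour their use, whereas hnRNPs bind nascent RNA widely and often oppose exon use, so that the balance between both families shifts the choice of exons. In heart muscle, splicing sets the isoforms of sarcomere proteins such as titin. A change in the level of these messages is not a change in splicing, which was not measured here.

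By array, the heart channel exceeded background clearly for 42.8% to 66.6% of spots (median 54.9%), and no such spot was saturated. The number of arrays limits the precision. The 10 cardiomyocyte markers had mean log2 ratios of heart over the pooled mouse reference from 1.68 to 6.92 in controls, which matches the tissue named in the labels. A whole section of tissue was used, so fewer cells of a type and less RNA per cell cannot be told apart. The 5 arrays on which the 6 atrial markers were lowest stood apart from the rest. Liver markers were high on 3 control day 3 arrays, called the high liver arrays below. The liver score, built like the cardiomyocyte score below, reached 4.25 in control hearts at day 3. It also reached 2.66 in carbon black hearts at day 3 and 2.43 in control hearts at day 1 (median 1.78). Leaving out these 3 arrays therefore did not remove all high liver signal. Array position on the slide was tied to exposure, since all 10 arrays at position 4 were carbon black and 12 of 18 control arrays were at position 1.

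Set against the reference RNA, most of these genes had a lower ratio in heart, and 4 had a mean above 0 in control hearts. Values are log2 ratios of the heart sample (Cy5) over the reference (Cy3), given as mean ± SD over 18 control arrays, with no test, because dyes were not swapped. A ratio compares 1 gene between heart and reference and says nothing of how abundant it is beside another gene. Snrpn, which encodes the SmN protein of brain and heart snRNPs, had the highest ratio at 2.41 ± 0.43. Hnrnpul1, an hnRNP U relative, followed at 1.21 ± 0.31, although its other probe had a negative ratio. Hnrnph3 had 0.23 ± 0.28, the SR protein gene Srsf4 had 0.06 ± 0.14 and Hnrnpu, which binds nuclear scaffold and RNA, had -0.11 ± 0.24. At the low end were Hnrnpa1 at -2.57 ± 0.62, the SF3B subunit gene Sf3b4 at -1.97 ± 0.21, Snrpd1 at -1.91 ± 0.29, Snrpg at -1.77 ± 0.31 and the SR protein gene Srsf7 at -1.75 ± 0.26. The order rests on the brightest probe of each gene, and other probes can differ. The other Hnrnpa1 probes had control means of -1.26 and -1.53, and Srsf7 had -1.71 and -0.01 on its other probes. Snrpd1 and Snrpg encode subunits of the Sm ring that most major spliceosomal snRNPs share. On the brightest probes Snrpn stood above Hnrnpul1, and Hnrnpul1 above Hnrnph3, by more than their SDs. The other Snrpn probe had 1.225 ± 0.584, near Hnrnpul1, and the other Hnrnpul1 probe had -0.19 ± 0.21, below Hnrnph3. Later neighbours in the order, Sf3b4 and Hnrnpa1 included, differed by less than the larger SD of the pair, except Hnrnpd above Snrpa1 (-1.11 ± 0.27 and -1.47 ± 0.25). The SD between arrays of a group had a median of 0.25 over these genes, from 0.11 for Sf3a2 to 0.52 for Snrpn, and of 0.26 over all genes tested.

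**Figure D1:**
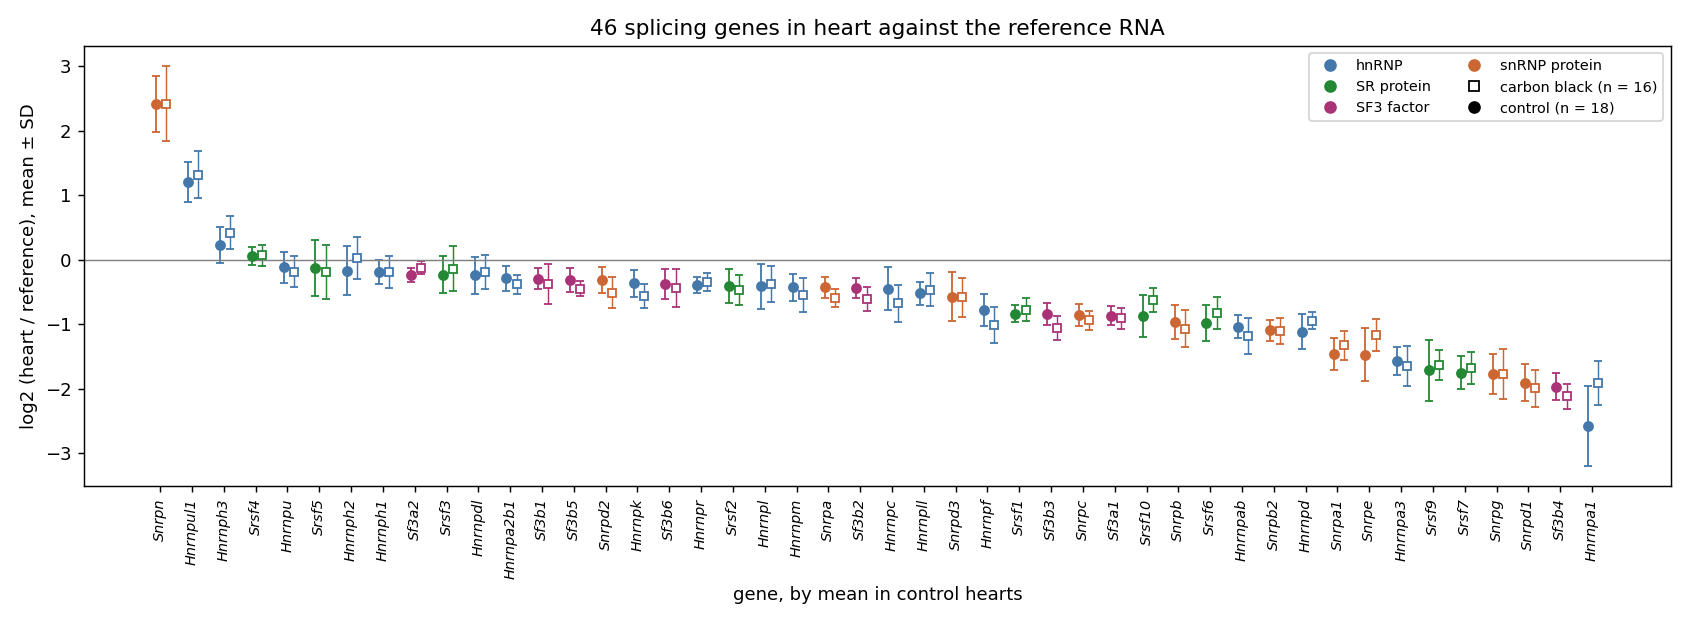
Log2 ratio of heart over reference RNA (y axis) for 46 genes ordered by their mean in control hearts (x axis). Filled circles are the means of 18 control arrays and open squares those of 16 carbon black arrays, bars are SDs and colours are role groups. On the brightest probe of each gene, which is shown, Snrpn at 2.41 and Hnrnpul1 at 1.21 stand above the rest, and Hnrnpa1 at -2.57 is lowest.

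Over all 3 days together, 1 of the 46 genes differed between carbon black and control hearts. Hnrnpa1, which encodes an abundant hnRNP that binds splice silencers and shuttles between nucleus and cytoplasm, rose by 0.68 ± 0.16 (log2 difference ± SE, mean of the 3 day differences, limma adjusted p = 0.0357 over all genes). In the same comparison 386 of 19798 genes, or 1.95%, were called at an adjusted p under 0.05 (1.33% higher and 0.621% lower), so 1 of 46 is near the share of all genes. That share ran from 0% to 4.74% on leaving out single arrays. At an unadjusted p under 0.05 there were 14 of these genes, 6 with higher and 8 with lower ratios, against 18.3% of all genes (10.8% higher and 7.50% lower). The median log2 difference of the 46 genes was -0.00, as was that of all genes at 0.00. All but Hnrnpa1 had differences under 1.5-fold (97.8% of these genes, 99.3% of all genes).

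**Figure D2:**
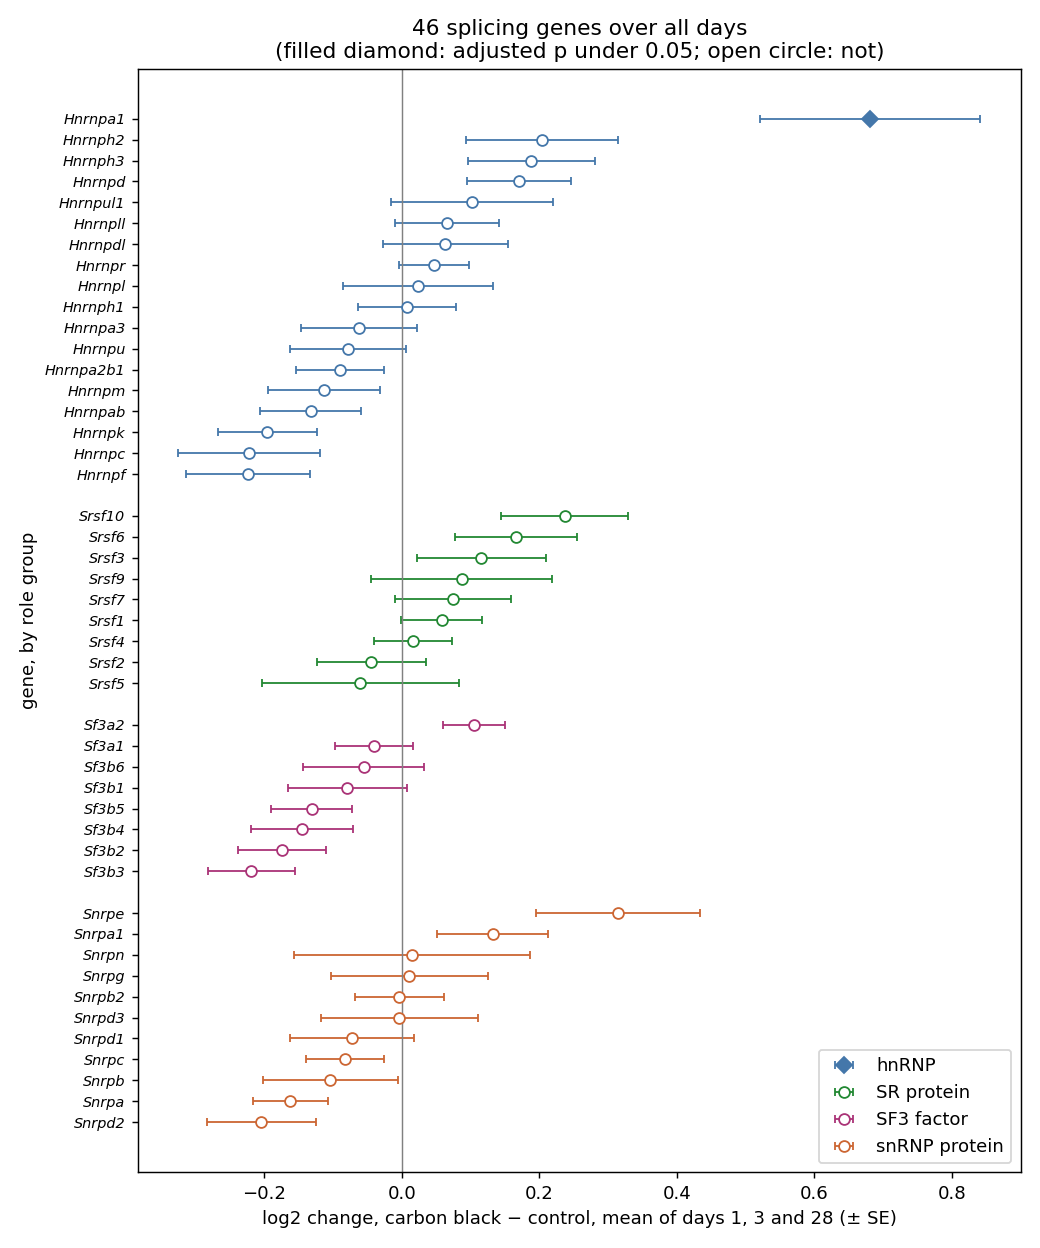
Log2 difference between carbon black and control hearts, averaged over days 1, 3 and 28 (x axis, ± SE), for each of 46 genes (y axis, grouped by role). The filled diamond marks the gene past an adjusted p of 0.05, Hnrnpa1 at 0.68, and open circles the rest. With median centring in place of loess all 46 differences are above 0, so the side of 0 on which a gene with an open circle lies depends on the scaling.

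The rise of Hnrnpa1 was seen by its brightest probe, called probe 1 here, which was well above background on 34 of 34 arrays. At day 1 its log2 ratios ran from -3.72 over a median of -2.65 to -2.00 in 6 controls and from -2.74 over -2.08 to -1.56 in 6 carbon black hearts. At day 3 controls ran from -3.77 over -2.75 to -1.99, and the 5 carbon black values were -2.08, -1.98, -1.84, -1.70 and -1.47. At day 28 controls ran from -2.77 over -2.18 to -1.75, and the 5 carbon black values were -1.90, -1.87, -1.85, -1.67 and -1.45. The carbon black median lay above the control median at each day, and the groups overlapped at each day, most at day 1 and least at day 3. Control arrays were more spread than carbon black arrays, with SDs of 0.65, 0.71 and 0.35 against 0.43, 0.24 and 0.19 at days 1, 3 and 28. Of 16 carbon black arrays, 15 lay above the mean of the controls of their day. The differences by day were 0.58 ± 0.27 at day 1, 1.00 ± 0.28 at day 3 and 0.46 ± 0.28 at day 28 (limma adjusted p = 0.671, 0.347 and 0.9999), and none of the 3 passed on its own.

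The other Hnrnpa1 probes had smaller differences over all days. Probe 2 ran from -1.74 to -0.96 in 18 controls and from -1.46 to -0.39 in 16 carbon black hearts, with a log2 difference of 0.08 ± 0.07 over all days (limma adjusted p = 0.634 over all probes). Probe 3 ran from -2.03 to -1.11 in controls and from -1.76 to -0.32 in carbon black hearts, with a difference of 0.16 ± 0.10 (limma adjusted p = 0.423). On both probes the groups overlapped widely at each day, and 1 carbon black day 1 array stood above all others (-0.39 and -0.32). At day 1 both had differences of the same sign as probe 1, 0.26 ± 0.12 on probe 2 and 0.34 ± 0.17 on probe 3 (limma adjusted p = 0.690 and 0.706). Both day 1 values include that high array, carbon black day 1 replicate 6. It had -1.11 and -1.39 in the authors' deposited values and -1.38 and -1.52 in the scanner software's processed signals, within the range of the others. The authors' values had means of -1.32 in controls and -1.33 in carbon black hearts on probe 2, and -1.59 and -1.57 on probe 3. With loess the differences of probes 2 and 3 were 0.09 ± 0.13 and 0.14 ± 0.17 at day 3, and -0.12 ± 0.13 and -0.01 ± 0.17 at day 28. Probes 1 and 3 are annotated to the same RefSeq transcript and probe 2 to another transcript of the gene. Within arrays, probe 1 minus probe 2 differed between carbon black and control hearts by 0.61 ± 0.18 (limma adjusted p = 0.0347 over all probe pairs), and probe 1 minus probe 3 by 0.52 ± 0.18 (limma adjusted p = 0.04997). At day 1 alone these probe differences were 0.33 ± 0.31 and 0.24 ± 0.30 (limma adjusted p = 0.7305 and 0.8003). The name table lists Hnrnpa1-like copies. Whether a probe also binds near-identical copies was not tested, as probe sequences were not used here.

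**Figure D3:**
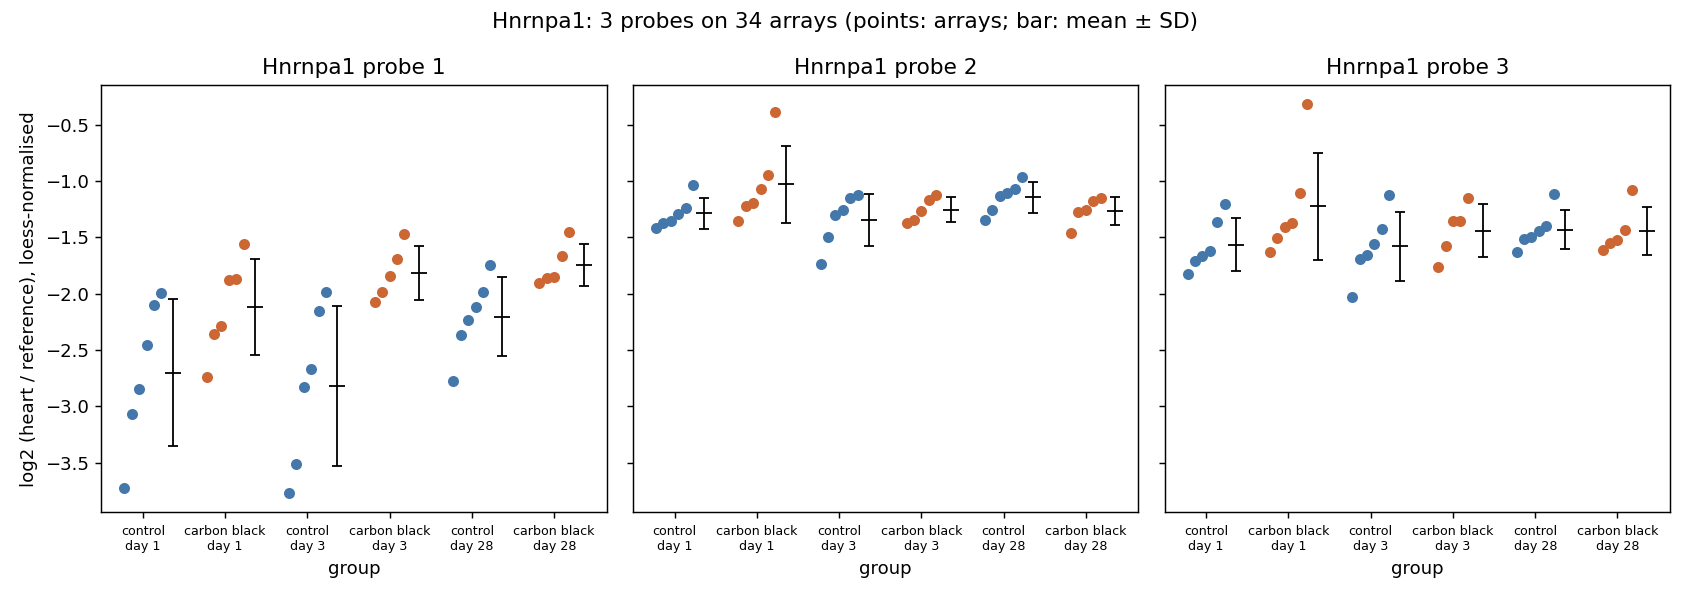
Log2 ratio of heart over reference (y axis) for the 3 Hnrnpa1 probes, by group (x axis), with 1 point per array and bars for mean ± SD (n = 6 per control group, and 6, 5 and 5 carbon black arrays at days 1, 3 and 28). Carbon black arrays lie higher on probe 1, where control arrays reach down to -3.77, and the groups overlap widely on probes 2 and 3.

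The size of the Hnrnpa1 difference depended on how the arrays were normalised. With loess, probe 1 ran from -3.77 over a median of -2.41 to -1.75 in 18 controls and from -2.74 over -1.87 to -1.45 in 16 carbon black hearts. With the scanner software's processed signals it ran from -2.26 over -1.94 to -1.56 in controls and from -2.41 over -1.76 to -1.44 in carbon black hearts. The low control values seen with loess are not present in the processed signals, and the difference over all days was 0.16 there (limma adjusted p = 0.437, with 0 of all genes called). In the authors' deposited values the probe ran from -3.77 over -2.57 to -1.96 in controls and from -2.84 over -2.11 to -1.73 in carbon black hearts, a difference of 0.62 (limma adjusted p = 0.0151). With median centring the difference was 1.06 (limma adjusted p = 0.0356), where the median of all genes also shifted by 0.19. Averaging the 3 probes of the gene gave 0.31 (limma adjusted p = 0.0461). The difference was above 0 in all of these settings.

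**Figure D4:**
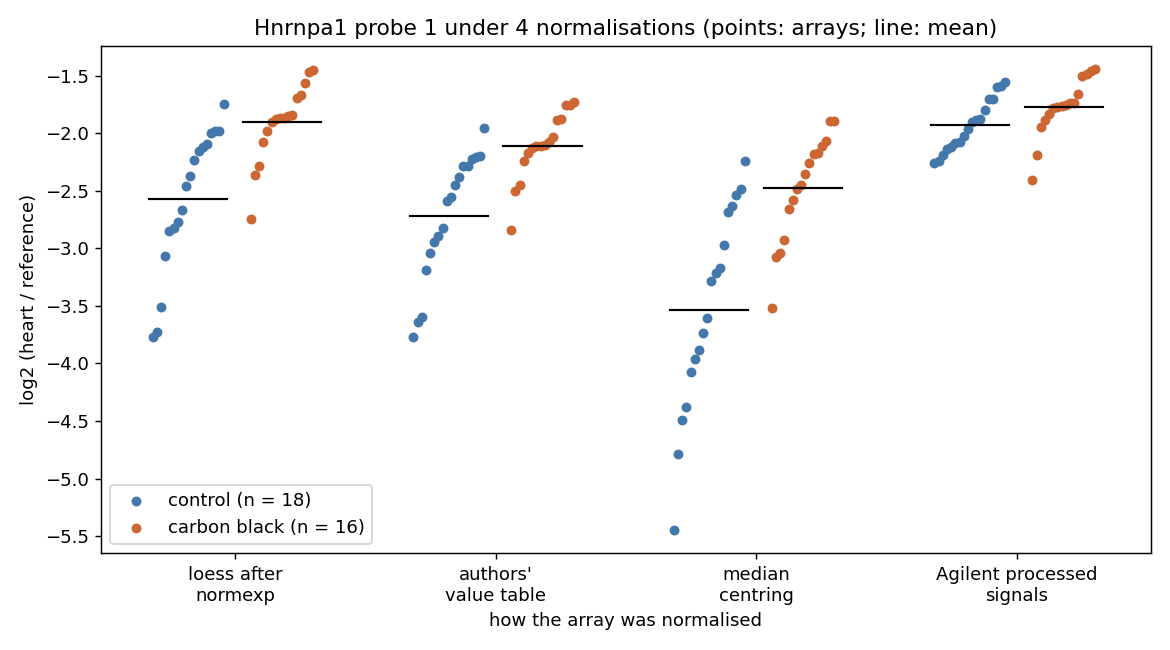
Log2 ratio of heart over reference for Hnrnpa1 probe 1 (y axis) under 4 ways of normalising the arrays (x axis), with 1 point per array for 18 control and 16 carbon black hearts and lines for the means. The lowest control value is -3.77 with loess and in the authors' values, -2.26 in the processed signals and -5.45 with median centring.

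Array position and slide bear on this gene. Among arrays at position 1, probe 1 had a mean of -2.78 ± 0.64 in 12 controls and -2.52 ± 0.32 in 2 carbon black hearts. At position 2 the means were -2.13 ± 0.48 in 3 controls and -1.89 ± 0.27 in 2 carbon black hearts, and at position 3 they were -2.20 ± 0.19 in 3 and -1.76 ± 0.13 in 2. The 10 carbon black arrays at position 4 had -1.82 ± 0.27. Within each of the 3 positions that held both groups the carbon black mean was higher, and position 1 was lower than the others in both groups. With position as a fixed block the difference was 0.34 (limma adjusted p = 0.738), and without the arrays of position 4 it was 0.52 (limma adjusted p = 0.595). On the 10 slides that held both groups of a day, carbon black minus control on probe 1 was above 0 on 10 of 10, from 0.10 to 1.78 with a median of 0.78, against 6 of 10 on probe 2 and 5 of 10 on probe 3. On all 10 of these slides the carbon black array was at position 4 and the control at position 1, so exposure and position cannot be told apart in these pairs. With slide as a fixed block the difference was 0.82 (limma adjusted p = 0.127), and with scan day as a block it was 0.66 (limma adjusted p = 0.0760).

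Markers of the tissue moved beside it. The score of the 10 cardiomyocyte markers, their mean deviation from the median of all arrays, ran from -1.07 to 0.39 in control and from -0.31 to 0.24 in carbon black hearts at day 3, and from -0.69 to 0.17 and from 0.04 to 0.30 at day 28. At day 1 it ran from -0.76 to 0.10 in controls and from -1.02 to 0.90 in carbon black hearts. All 10 markers had higher ratios over all days (median 0.33, 1 called), while 6 of 7 liver markers had lower ones (median -0.76, 0 called by limma, 3 at an unadjusted p under 0.05). All 6 atrial markers (median 0.41) and all 7 adipocyte markers (median 0.37) also had higher ratios and 6 of 8 fibroblast markers lower ones (median -0.38), with 0 called by limma and 1 at an unadjusted p under 0.05 in each list. Of all genes, 1.95% were called over all days and 18.3% were at an unadjusted p under 0.05. Of 4 airway and alveolar markers, 3 had lower ratios at day 3 (median of the 4 -1.61, 0 called by limma). All 3 were at an unadjusted p under 0.05, against 11.1% of all genes. Their score at day 3 ran from -0.20 to 3.77 in controls and from -0.15 to 1.18 in carbon black hearts. The share of spots well above background, at day 3, ran from 49.4% to 60.9% in controls and from 53.1% to 65.2% in carbon black hearts. The part of these measures in the Hnrnpa1 result was not tested. Without the 3 arrays of high liver markers the difference was 0.62 (limma adjusted p = 0.128), and without the 5 arrays of low atrial markers it was 0.78 (limma adjusted p = 0.0228).

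The Hnrnpa1 call also changed on leaving out single arrays, as did the count of all genes called. It was lost on leaving out 1 array in 14 of 34 cases, with differences from 0.61 to 0.70. In these 14 fits 0 to 70 of all 19798 genes were called, against 386 with all arrays. The limma adjusted p of Hnrnpa1 was 0.0503, 0.0579 and 0.0597 without carbon black day 1 replicates 1, 4 and 5. It was 0.0677 and 0.0609 without carbon black day 3 replicates 3 and 5, and 0.0628 and 0.0584 without carbon black day 28 replicates 3 and 5. Among controls it was 0.0576 and 0.0513 without day 1 replicates 3 and 5, 0.0570, 0.0529 and 0.0568 without day 3 replicates 1, 4 and 6, and 0.0637 and 0.0559 without day 28 replicates 4 and 5. The direction was the same in all 34 cases.

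The results turn on Hnrnpa1, on Hnrnpdl and on the gene next in line, Sf3b3, so the 250 bases before their RefSeq transcript starts (GRCm38.p6) are shown in the direction of transcription. Capitals mark matches on either strand to one of 4 short motifs, and no match overlaps another. They are the CCAAT box, the GC box GGGCGG, the TATA box TATAAA, and the ETS core CCGGAA.
Hnrnpa1, chr15:103240147-103240396, plus strand: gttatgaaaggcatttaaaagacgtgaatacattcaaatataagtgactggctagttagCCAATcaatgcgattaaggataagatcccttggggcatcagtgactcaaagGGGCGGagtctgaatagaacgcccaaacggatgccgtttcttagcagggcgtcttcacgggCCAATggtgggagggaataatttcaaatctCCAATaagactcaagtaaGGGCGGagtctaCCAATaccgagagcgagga
Hnrnpdl, chr5:100039223-100039472, minus strand: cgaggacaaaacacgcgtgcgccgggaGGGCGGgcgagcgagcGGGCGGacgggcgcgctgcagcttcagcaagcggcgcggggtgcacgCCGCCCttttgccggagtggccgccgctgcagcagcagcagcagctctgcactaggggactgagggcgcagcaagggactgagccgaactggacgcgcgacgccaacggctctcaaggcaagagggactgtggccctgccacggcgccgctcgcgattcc
Sf3b3, chr8:110846804-110847053, minus strand: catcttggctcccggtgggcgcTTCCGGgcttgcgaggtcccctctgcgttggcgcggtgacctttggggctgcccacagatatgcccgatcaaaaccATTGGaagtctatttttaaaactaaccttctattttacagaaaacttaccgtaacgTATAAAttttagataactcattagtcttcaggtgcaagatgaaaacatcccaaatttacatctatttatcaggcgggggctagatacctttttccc
The Hnrnpa1 window holds 4 CCAAT and 2 GGGCGG matches, the Hnrnpdl window 3 GGGCGG matches, and the Sf3b3 window 1 match each to the CCAAT box, the TATA box and the ETS core. Read on both strands, CCAAT was present in 33.8% of 32851 promoter windows of this length and in 43.9% of 57 windows of 41 of the splicing genes. GGGCGG was present in 32.7% and 66.7%, TATAAA in 12.4% and 10.5%, and CCGGAA in 12% and 43.9%. These matches describe letters only, and no binding was measured.

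Fitted probe by probe, 2 of the 72 probes passed, against 1.87% of 25249 probes. These were Hnrnpa1 probe 1 and Hnrnpdl probe 2. Hnrnpdl encodes an hnRNP D-like protein whose own message is alternatively spliced. At day 1 its probe 2 ran from -1.11 over -0.66 to -0.41 in controls and from -0.52 over -0.34 to -0.22 in carbon black hearts. At day 3 controls ran from -1.29 over -0.74 to -0.26, and the carbon black values were -0.59, -0.54, -0.53, -0.32 and -0.27. At day 28 controls ran from -0.83 over -0.61 to -0.39, and the carbon black values were -0.59, -0.41, -0.40, -0.27 and 0.03. Carbon black hearts were mostly higher at each day, with overlap at each. Over all days the probe rose by 0.32 ± 0.08 (limma adjusted p = 0.0451 over all probes), whereas the brighter probe 1 of the gene differed by 0.06 ± 0.09 (limma adjusted p = 0.781). The difference between both probes did not pass (-0.26, limma adjusted p = 0.142).

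The Hnrnpdl probe 2 call was no firmer than that of Hnrnpa1. On the 10 slides with both groups, carbon black at position 4 minus control at position 1 was above 0 on 10, from 0.04 to 0.90. Position 1 controls had a mean of -0.82 ± 0.27 (n = 12), against -0.41 ± 0.16 and -0.55 ± 0.13 at positions 2 and 3 (n = 3 each). Within positions the carbon black mean was higher at position 1 (-0.37 ± 0.22) and position 3 (-0.12 ± 0.21) and lower at position 2 (-0.56 ± 0.04), with n = 2 at each. With the processed signals the difference was 0.12 (limma adjusted p = 0.504), and with position as a block 0.26 (0.598). The call was lost on leaving out 1 array in 22 of 34 cases, with differences from 0.29 to 0.33 and limma adjusted p from 0.0524 to 0.0723. It was kept only without control day 1 replicates 1, 2 or 6, control day 3 replicates 2, 3 or 5, control day 28 replicates 2 or 6, carbon black day 1 replicates 3 or 6, or carbon black day 28 replicates 1 or 4.

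Probes of the same gene could be compared for 18 genes in 26 pairs, each the brightest probe with another. The signs of the all-days differences were the same in 16 pairs and opposite in 10. In 4 pairs the difference between probes passed, against 11.0% of 5451 pairs over all genes (27.4% at an unadjusted p under 0.05), and no pair passed at a single day (0 of all pairs by limma at an adjusted p under 0.05). The median absolute difference between probes was 0.141 in these pairs and 0.121 over all pairs. Beside both Hnrnpa1 pairs these were Snrpn probes 1 and 2 (-0.41 ± 0.12, limma adjusted p = 0.0278) and probes 1 and 2 of Hnrnpa3, an hnRNP close to hnRNP A1 (-0.31 ± 0.10, limma adjusted p = 0.04997). Several genes had probes that gave like values. Srsf10 had all-days differences of 0.24 and 0.22 on its 2 probes, Hnrnpll 0.07 and 0.05, Snrpd3 -0.00 and -0.02, and Snrpa -0.16, -0.14, -0.07 and -0.05 on 4 probes.

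**Figure D5:**
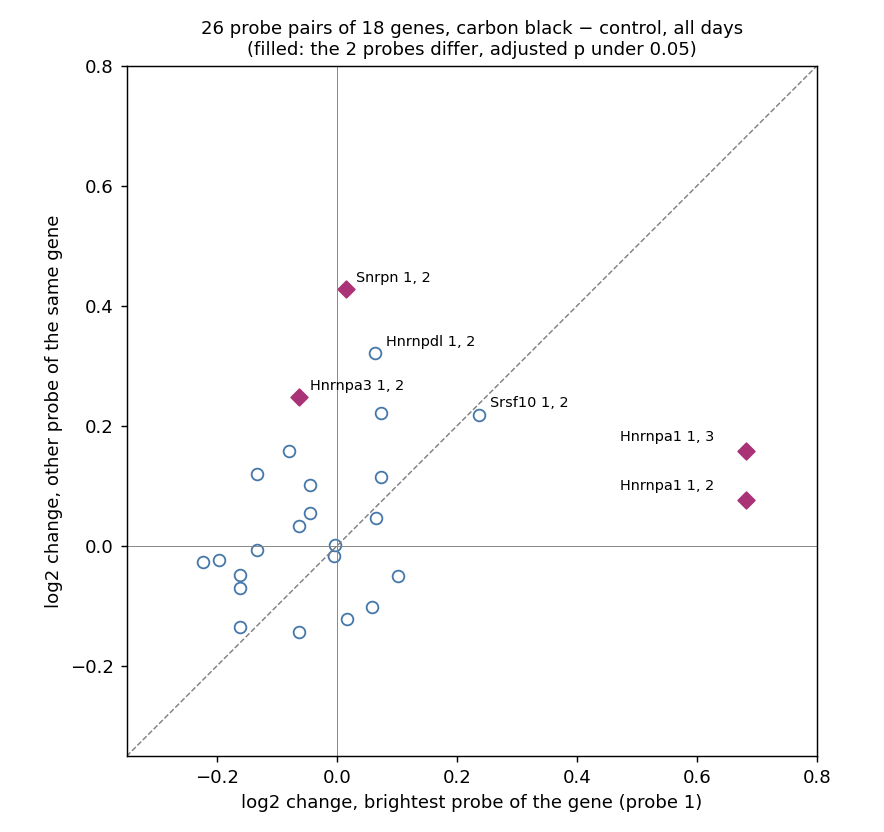
All-days log2 difference between carbon black and control hearts on the brightest probe of a gene (x axis) and on another probe of it (y axis), with 1 point for each of 26 pairs and a dashed line where both are equal. Filled diamonds mark the 4 pairs whose probes differed (Snrpn, Hnrnpa3 and both Hnrnpa1 pairs). Hnrnpa1 lies far to the right at 0.68 with 0.08 and 0.16 on its other probes.

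In the Snrpn and Hnrnpa3 pairs the brightest probe was near 0 and the dimmer one higher in carbon black hearts. Snrpn probe 1 differed by 0.01 ± 0.17 and probe 2 by 0.43 ± 0.18 (limma adjusted p = 0.978 and 0.195). At day 3, Snrpn probe 2 ran from -0.02 over 1.02 to 2.07 in controls and had 1.53, 1.89, 1.96, 2.01 and 2.07 in carbon black hearts, so the exposed values lay in the upper part of the control range. Hnrnpa3 probe 1 differed by -0.06 ± 0.08 and probe 2 by 0.25 ± 0.11 (limma adjusted p = 0.767 and 0.219). At day 3, Hnrnpa3 probe 2 ran from -1.90 over -1.40 to -1.10 in controls and had -1.43, -1.19, -0.86, -0.77 and -0.77 in carbon black hearts, again with overlap. Some of these probes were lowest on the arrays on which Hnrnpa1 probe 1 was lowest. Control day 3 replicate 1 had the lowest Hnrnpa1 probe 1 and Snrpn probe 2 values (-3.77 and -0.02), control day 1 replicate 5 the lowest Hnrnpa3 probe 2 value (-2.77), and control day 3 replicate 6 the lowest Hnrnpdl probe 2 value (-1.29).

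The pair calls were lost with position as a block, with the processed signals and without the arrays of high liver markers. In that order the Snrpn difference was -0.30, -0.11 and -0.41 (limma adjusted p = 0.520, 0.868 and 0.0892). That of Hnrnpa3 was -0.23, -0.07 and -0.25 (0.578, 0.733 and 0.160). Hnrnpa1 probes 1 and 2 had 0.18, 0.14 and 0.56 (0.833, 0.619 and 0.105), and probes 1 and 3 had 0.11, 0.16 and 0.51 (0.896, 0.664 and 0.128). The differences shrank in the first 2 settings and for Hnrnpa1 and Snrpn changed little without the high liver arrays. Leaving out single arrays ended the Snrpn call in 1 case (control day 28 replicate 4, -0.38, limma adjusted p = 0.0502). It ended that of Hnrnpa1 probes 1 and 2 in 10 cases (differences 0.53 to 0.59, limma adjusted p = 0.0510 to 0.0602): control day 1 replicates 3 and 5, day 3 replicates 1 and 6 and day 28 replicate 4, and carbon black day 1 replicates 2 and 4, day 3 replicates 3 and 5 and day 28 replicate 3. It ended that of Hnrnpa1 probes 1 and 3 in 26 cases (0.46 to 0.55, limma adjusted p = 0.0519 to 0.0878), all but control day 1 replicates 1, 2 and 6, day 3 replicates 2 and 3 and day 28 replicate 6, and carbon black day 1 replicate 6 and day 3 replicate 2. For Hnrnpa3 it did so in 25 cases (-0.33 to -0.24, limma adjusted p = 0.0511 to 0.0771), all but control day 1 replicates 1, 2, 4 and 6, day 3 replicates 2, 3 and 5 and day 28 replicate 2, and carbon black day 1 replicate 3.

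Of the 8 SF3 genes, 7 had lower ratios in carbon black hearts over all days and none passed, with a median difference of -0.11, while median centring gave 8 of 8 above 0 and a median 0.02 above that of all genes. With the processed signals 4 were higher and 4 lower (median -0.03, against 0.03 for all genes). With position as a block, and without the arrays of position 4, 3 were higher and 5 lower (medians -0.08 and -0.12). Without background correction and in the authors' values 7 were again lower. Sf3b3, a large beta-propeller subunit of SF3B, came nearest. At day 1 it ran from -1.19 over -0.96 to -0.50 in controls and from -1.31 over -1.12 to -0.69 in carbon black hearts. At day 3 controls ran from -0.90 over -0.82 to -0.59, and the carbon black values were -1.09, -1.05, -0.998, -0.916 and -0.876. At day 28 controls ran from -0.99 over -0.80 to -0.70, and the carbon black values were -1.38, -1.32, -0.99, -0.97 and -0.95. At days 3 and 28 the groups overlapped at the low end of the controls, and at day 1 they overlapped widely. The difference over all days was -0.22 ± 0.06 (limma adjusted p = 0.0584), with 15 of 16 carbon black arrays below the control mean of their day.

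Of the 17 alternatives with an all-days value, Sf3b3 passed in 3, turned sign in 1 and kept its sign without passing in 13. The value was -0.23 without background correction (limma adjusted p = 0.0180) and -0.28 in the authors' values (0.0175). It was -0.23 without the 5 arrays of low atrial markers (0.0406). Leaving out control day 3 replicate 2 (-0.22, limma adjusted p = 0.0498) or 3 (-0.23, 0.0411), control day 1 replicate 6 (-0.23, 0.0484) or carbon black day 1 replicate 6 (-0.24, 0.0285) also brought it past the threshold. More genes of the whole array were called in each of these settings. Without background correction, in the authors' values and without the low atrial arrays, 1485, 1497 and 1026 of 19798 genes were called, against 386. These fits without 1 array gave 692 to 939. Sf3b3 did not pass with the processed signals, without position 4, or with slide, scan day or position as a block. In these settings 0 of all genes were called. With median centring Sf3b3 had 0.11 (limma adjusted p = 0.526), below the shift of all genes of 0.19. At position 1 Sf3b3 had a mean of -0.84 ± 0.20 in 12 controls and -0.81 ± 0.16 in 2 carbon black hearts. At positions 2 and 3 the carbon black means were lower, -0.98 and -1.17 (n = 2 each) against -0.83 and -0.84 (n = 3 each). Sf3b2, the SF3B subunit that helps tether U2 to the branch site, had -0.17 ± 0.06 (limma adjusted p = 0.127). Sf3b5 had -0.13 ± 0.06 (0.229), Sf3b4 -0.15 ± 0.07 (0.297), and Sf3b1, the subunit that contacts the branch site and is often mutated in blood cancers, -0.08 ± 0.09 (0.696). Sf3a2 was the one SF3 gene with a higher ratio, 0.11 ± 0.04 (limma adjusted p = 0.194), above the control mean on 15 of 16 carbon black arrays.

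Among the 9 SR protein genes, 7 had higher and 2 lower ratios over all days (median 0.07) and none passed, with 5 and 4 in the processed signals and 9 of 9 above 0 with median centring. Srsf10, an SR protein that acts as a repressor when it loses its phosphate, had the largest value, 0.24 ± 0.09 (limma adjusted p = 0.156). At day 1 its probe 1 ran from -1.50 over -0.84 to -0.51 in controls and from -0.77 over -0.54 to -0.18 in carbon black hearts, with overlap. Srsf6, which binds exonic enhancers, had 0.17 ± 0.09 (limma adjusted p = 0.320) and Srsf3, the smallest SR protein, 0.12 ± 0.09 (0.558). Srsf1, which mouse hearts need for normal remodelling after birth, had 0.06 ± 0.06 (limma adjusted p = 0.666). Srsf2 and Srsf5 had -0.04 ± 0.08 and -0.06 ± 0.14.

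Beside Hnrnpa1, the other 17 hnRNP genes included 5 at an unadjusted p under 0.05, against 18.3% of all genes, none of them past the adjusted threshold. Hnrnpk, whose KH domains bind C-rich RNA, had -0.20 ± 0.07 (limma adjusted p = 0.128). Hnrnpf, which binds G runs, had -0.22 ± 0.09 (0.168), and Hnrnpc, which binds U tracts, -0.22 ± 0.10 (0.243). Hnrnpd, known as AUF1 for its binding to AU-rich elements, had 0.17 ± 0.08 (0.220), and Hnrnph3 0.19 ± 0.09 (0.271). All 3 negative values were above 0 with median centring. The other probes of Hnrnpk and Hnrnpf had -0.02 ± 0.09 and -0.03 ± 0.11. Hnrnpa2b1, whose protein is a close relative of hnRNP A1, had -0.09 ± 0.06 (limma adjusted p = 0.492). Over all 18 hnRNP genes 10 had higher and 8 lower ratios, with a median of 0.02 and of 0.17 above all genes with median centring.

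Of the 11 snRNP protein genes, 4 had higher and 7 lower ratios over all days (median -0.00), none passed, and all 11 were above 0 with median centring. Snrpa, the A protein of the U1 snRNP that binds a loop of its RNA, had -0.16 ± 0.05 (limma adjusted p = 0.0968), with 15 of 16 carbon black arrays below the control mean of their day. At day 1 it ran from -0.67 over -0.51 to -0.14 in controls and from -0.82 over -0.75 to -0.55 in carbon black hearts, with overlap only at the low end of the controls. Snrpe, a subunit of the Sm ring, had 0.31 ± 0.12 (limma adjusted p = 0.142), above the control mean on 15 of 16 arrays. At day 3 Snrpe ran from -1.97 over -1.53 to -0.94 in controls and had -1.22, -1.18, -1.17, -1.08 and -0.99 in carbon black hearts, within the control range. Snrpd2, another Sm subunit, had -0.20 ± 0.08 (limma adjusted p = 0.155).

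Day by day, no gene of the set passed, and neither did any of the 19798 genes in limma at an adjusted p under 0.05 (0% called at days 1, 3 and 28). At day 1, 7 of the 46 genes were at an unadjusted p under 0.05, 3 with higher and 4 with lower ratios, against 7.20% of all genes (3.32% higher and 3.88% lower). The median difference was -0.12, against -0.00 for all genes, and 29 of 46 genes had lower ratios. With the processed signals the median was -0.03, against 0.04 for all genes, and 34 of the 46 lay below the median of all genes. With median centring the median was 0.34, against 0.21 for all genes. Snrpa had -0.27 ± 0.09 (limma adjusted p = 0.542), Snrpa1, a protein of the U2 snRNP, 0.32 ± 0.14 (0.631), Srsf10 0.37 ± 0.16 (0.637), Hnrnpf -0.35 ± 0.15 (0.643) and Hnrnpab -0.28 ± 0.12 (0.658). At the ends of the role groups were Snrpd3 at -0.36 ± 0.19, Srsf3 at -0.14 ± 0.16, Sf3b6, which touches the branch point adenosine, at -0.23 ± 0.15 and Sf3a2 at 0.10 ± 0.07. Beside these values, all 8 fibroblast markers had lower ratios at day 1 (median -0.88) and so did 6 of 7 liver markers (median -1.76). All 7 macrophage markers (median -0.62) and all 6 smooth muscle and pericyte markers (median -0.65) were lower too. So were 6 of 7 endothelial (median -0.44) and 6 of 7 adipocyte markers (median -0.29). Higher ratios were seen for 6 of 10 cardiomyocyte, 5 of 6 atrial and 4 of 6 lymphocyte markers (medians 0.21, 0.21 and 0.20). The part of these markers in the splicing genes' values was not tested.

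At day 3, 5 genes were at an unadjusted p under 0.05, all with higher ratios, against 11.1% of all genes (6.98% higher and 4.10% lower). The median difference was 0.07, against 0.02 for all genes, and 0.49 against 0.29 with median centring. After Hnrnpa1 came Srsf6 at 0.39 ± 0.15 (limma adjusted p = 0.364), Hnrnph2 at 0.48 ± 0.19 (0.367), Hnrnph3 at 0.39 ± 0.16 (0.376) and Srsf3 at 0.38 ± 0.16 (0.387). Srsf3 ran from -0.86 over -0.34 to -0.05 in controls, and the carbon black hearts, with a median of -0.01, reached 0.28 and overlapped the upper controls. Sf3b3 had -0.21 ± 0.11 (limma adjusted p = 0.477). The lowest SR gene was Srsf2 at -0.01 ± 0.14, the highest snRNP gene Snrpn at 0.40 ± 0.30 and the lowest Snrpd2 at -0.18 ± 0.14. Hnrnpf had -0.16 ± 0.16 and Sf3a2 0.09 ± 0.08.

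At day 28, 2 genes were at an unadjusted p under 0.05, both with lower ratios, against 2.99% of all genes (1.58% higher and 1.40% lower). These were Sf3b3 at -0.29 ± 0.11 and Hnrnpc at -0.39 ± 0.18 (limma adjusted p = 0.9999 for each). Hnrnpk had -0.25 ± 0.13, Snrpd2 -0.25 ± 0.14, Sf3b2 -0.19 ± 0.11 and Srsf5 -0.33 ± 0.25, whereas Snrpe had 0.32 ± 0.21, Srsf10 0.15 ± 0.16 and Sf3a2 0.12 ± 0.08. The median difference was -0.04, against 0.01 for all genes.

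Whether the differences changed with the day was tested as an interaction, with an F test over the 3 days. None of the 46 genes passed, none was at an unadjusted p under 0.05 (0.995% of all genes were), and limma called 0 of all genes. The lowest unadjusted p was 0.0795, for Hnrnph1 (limma adjusted p = 0.9999). Between days 1 and 3 the difference moved by 0.61 ± 0.28 for Snrpd3, 0.52 ± 0.23 for Srsf3 and 0.40 ± 0.17 for Hnrnph1 (limma adjusted p = 0.9995 for each). These 3 of 46 were at an unadjusted p under 0.05 for this step alone, against 2.18% of all genes, and limma called 0 of all genes for it. For Hnrnpa1 the same step was 0.42 ± 0.39, and from day 3 to day 28 it was -0.55 ± 0.40.

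Control hearts were also compared between days. limma called 0 of the 46 genes and 0 of all genes in each of the 3 comparisons. From day 1 to day 3 no gene of the set was at an unadjusted p under 0.05 (2.04% of all genes were), with Snrpd3 at -0.37 ± 0.19, Snrpn at -0.40 ± 0.29 and Hnrnph2 at -0.25 ± 0.18 lowest and Srsf2 at 0.18 ± 0.13 and Sf3b3 at 0.14 ± 0.11 highest. From day 1 to day 28 none was either (1.18% of all genes were). Of the 46 genes 35 had higher ratios at day 28, all 9 SR protein genes among them, against 10072 of 19798 genes. Hnrnpa1 had 0.49 ± 0.27, Srsf5 0.33 ± 0.24, Srsf3 0.24 ± 0.16, Srsf7 0.24 ± 0.14, Hnrnpdl 0.23 ± 0.15 and Snrpd3 -0.26 ± 0.19. From day 3 to day 28, 4 hnRNP genes were at an unadjusted p under 0.05, all higher at day 28, against 4.43% of all genes. These were Hnrnpa1 at 0.61 ± 0.27, Hnrnph2 at 0.41 ± 0.18, Hnrnpc at 0.39 ± 0.17 and Hnrnpdl at 0.32 ± 0.15 (limma adjusted p = 0.9989 for each). For Hnrnpa1 the control differences of 0.49 and 0.61 were near in size to its all-days difference between carbon black and control hearts, 0.68. Both comparisons with day 3 share the control day 3 arrays, which also serve the day 3 comparison with carbon black.

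Related genes outside the named families were read from lists of splicing regulators. limma called 0 genes in each of 4 lists over all days, against 1.95% of all genes. Among 12 tested alternative splicing regulators of 17 listed, 9 had higher ratios. Of these, 2 were at an unadjusted p under 0.05, against 18.3% of all genes (10.8% higher). Mbnl1, a muscleblind protein that directs the fetal to adult splicing switch in muscle, had 0.59 ± 0.16 (limma adjusted p = 0.0510), and Celf1, which acts against it, 0.29 ± 0.09 (0.0712). Among 29 of 30 other spliceosome subunits, 15 had higher and 14 lower ratios (median 0.00). Lsm4, part of the ring on U6 RNA, had 0.41 ± 0.12 (limma adjusted p = 0.0536), Bud31 0.31 ± 0.12 (0.139) and the U5 protein gene Snrnp40 0.26 ± 0.11 (0.195). Of 10 hnRNP-like RNA-binding proteins, 8 had higher ratios (median 0.15), with Khsrp at 0.29 ± 0.11 (limma adjusted p = 0.137), Rbmx at 0.18 ± 0.07 (0.178) and the cold-induced Cirbp at 0.27 ± 0.13 (0.250). Of the 7 kinases that phosphorylate SR proteins, 2 had higher and 5 lower ratios, with Clk3 at -0.14 ± 0.06 (limma adjusted p = 0.207) and Clk4 at 0.19 ± 0.11 (0.381). Rbfox1, Qk and the muscle kinase Srpk3, named after their values were seen, had log2 ratios over the reference of 3.96 ± 0.36, 3.13 ± 0.41 and 3.05 ± 0.26 in controls and differed by 0.03, 0.02 and -0.03 between carbon black and control hearts.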

How the data were processed

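Heart RNA of 34 mice was hybridised with Cy5 against Universal Mouse Reference RNA with Cy3 on Agilent arrays (200 ng RNA each), per the labels. The deposited scanner files hold intensity values and flags per spot, made with Agilent Feature Extraction 10.1.1.1 per the file headers. The authors' deposited table holds log2 ratios with column medians from -0.0551 to -0.0325, which correlated at 0.995 to 0.998 with loess-normalised log2 ratios of uncorrected median signals, and this set their scale and direction.

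Median signals were background-corrected (normexp, offset 50) and loess-normalised in limma 3.58.1 (R 4.3.3; figures with Python 3.11.15 and matplotlib 3.10.9). Flagged spots (0.363%) were left out, spots of a probe were averaged, and a probe entered where a share of 0.5 of the arrays in any group had it well above background, with at most 3 missing values. The probe with the highest mean sample signal stood for its gene. A mean was fitted per group (lmFit, eBayes, 28 residual degrees of freedom) with Benjamini-Hochberg adjustment over all 19798 genes, 25249 probes or 5451 probe pairs and a threshold of 0.05. A pair is the within-array difference between the brightest and another probe of a gene. Scripts were tested on simulated data.

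Gene names came from RefSeq accessions, promoters from RefSeq (GRCm38.p6); array coordinates (mm8) were not used. The members and lists were chosen with earlier results of these data known. Named were genes past the threshold, or, where fewer than 6 passed, the 6 of smallest unadjusted p, plus the highest and lowest of each role group. In the related lists, the hnRNP, SR, SF3 and snRNP paragraphs and the heart levels of list genes, some names were chosen after their values were seen. Each array has its own sample number, and replicate numbers are in accession order and pair nothing. Alternatives changed the background correction, signal, normalisation, filter, probe rule, model and blocks, or left out arrays.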

Additional observations from a re-analysis of the deposited data

Results flagged for a closer look

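Of 102 groups of 5 or 6 arrays examined (probes of the genes described in detail, by group), 4 held a value far from the others for the size of the group, and chance gives about 1 in 20. In control hearts at day 1, 1 array had -2.77 on Hnrnpa3 probe 2, with the nearest other at -1.56. It is control day 1 replicate 5, the array with the lowest share of spots well above background, 42.8%. In control hearts at day 3, 1 array had -1.16 on Hnrnpdl probe 1, with the nearest other at -0.37, and 1 had -0.65 on Hnrnpk probe 1, with the nearest at -0.38. In carbon black hearts at day 28, 1 array had -0.755 on Hnrnpdl probe 1, with the nearest other at -0.06.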

How the results depend on the processing

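Over 18 alternatives and 34 fits that each left out 1 array, no member was called at a single day, between control days or in the interaction. The 1 member called over all days (Hnrnpa1) became 2 without background correction, with the authors' values and without the arrays of low atrial markers. It became 4 with median centring, and 0 with the processed signals, with slide, scan day or position as a block, without position 4, without the arrays of high liver markers and without the 3 arrays of lowest Hnrnpa1. This last choice was made after seeing the data and by the value itself, so a smaller difference follows by construction. Leaving out single arrays gave 0 to 2 members, 0 to 3 probes and 0 to 4 pairs. Member probes called (2) became 4 without background correction and with the authors' values, 5 with median centring, 1 without a filter, and 0 with the processed signals, slide, scan day, position, without position 4, without high liver markers and without lowest Hnrnpa1. Pairs (4) became 2 among probes well above background on all arrays, 1 with scan day, and 0 with the processed signals, slide, position, without position 4, without high liver markers and without lowest Hnrnpa1. The 386 genes called over all days became 1485 without background correction, 1497 with the authors' values, 1375 with median centring, 148 without a filter, 132 with the mean of probes, 1026 without low atrial markers, 1 without high liver markers, 2 without lowest Hnrnpa1 and 0 with the processed signals, slide, scan day, position or without position 4. On leaving out single arrays it was 648 to 939 without control day 1 replicates 2 or 6, day 3 replicates 2 or 3 or day 28 replicate 2, or carbon black day 1 replicate 6. It was 260 to 532 without control day 1 replicate 1, day 3 replicate 5 or day 28 replicate 6, or carbon black day 1 replicate 3, day 3 replicate 4 or day 28 replicates 1 or 4. It was 0 to 201 without any 1 of the other 21 arrays, 4 of which gave 0 (control day 28 replicate 4, and in carbon black hearts replicates 3 and 5 of day 3 and replicate 3 of day 28). The cause was not tested.

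The median difference at day 1 was -0.035 with the processed signals, -0.057 with the mean of probes, -0.056 with position and -0.026 without position 4. The median of all genes was 0.039 with the processed signals, -0.004 with position and -0.027 without position 4. With median centring the medians were 0.34, 0.49, 0.15 and 0.33 at days 1, 3 and 28 and over all days, and 46 of 46 members lay above 0 over all days (40 above the median of all genes, 0.19) against 22 of 46 with loess.

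With median centring the median of all genes was 0.21, 0.29, 0.08 and 0.19 at days 1, 3 and 28 and over all days. A turned value under that median is above 0 but still below the median gene. In this setting signs turned at day 1 for Snrpa (0.24), Hnrnpf (0.19), Hnrnpab (0.33), Snrpd3 (0.092), Srsf3 (0.0029) and Sf3b6 (0.24). At day 3 they turned for Sf3b3 (0.23), Hnrnpf (0.30), Srsf2 (0.44) and Snrpd2 (0.27), and at day 28 for Hnrnpk (0.034) and Sf3b2 (0.033). Over all days they turned for Sf3b3 (0.11), Snrpa (0.24), Sf3b2 (0.21), Hnrnpk (0.25), Hnrnpf (0.19), Snrpd2 (0.16) and Srsf5 (0.27). Srsf2 at day 3 also turned without background correction (0.010), with the processed signals (0.12), the mean of probes (0.11), position (0.19), without position 4 (0.12) and without lowest Hnrnpa1 (0.072), as did Hnrnpf with the processed signals (0.0086). Srsf5 over all days turned with slide (0.029) and without low atrial markers (0.004257). With position and without position 4, Srsf3 at day 1 (0.0996, 0.093) and Snrpd2 at day 3 (0.013, 0.077) turned. In controls, slide turned Sf3b3 from day 1 to 3 (-0.037), Srsf5 and Srsf4 from day 1 to 28 (-0.031, -0.0054) and Snrpn and Sf3b1 from day 3 to 28 (-0.048, -0.058). Leaving out the high liver arrays turned Hnrnph2 (0.022) and Snrpc (-0.027) from day 1 to 3. Leaving out single arrays turned Srsf2 at day 3 (-0.093 to 0.062), Sf3b1 from control day 1 to 3 (-0.093 to 0.025) and Srsf4 from control day 1 to 28 (-0.018 to 0.077).

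No paired analysis was possible by replicate number because these follow accession order and pair no mice. Slide could be a block instead (Hnrnpa1 0.82, adjusted p = 0.127 in limma), and on the 10 slides with both groups of a day it pairs position 4 with position 1. Mean signals were not used here, so that alternative was not run. Aquantile leaves ratios as they are by construction. Slide as a random block gave no interaction, probe or pair value, the mean of probes no probe or pair value, and a fit of only the groups compared no all-days value. Sf3a2, the dimmest member tested, was well above background on 20 of 34 arrays.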
